A study of Mus musculus with 6 samples.

Results

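The protein genes of the mitochondrial ribosome were compared between hippocampal neurospheres grown with norepinephrine and neurospheres grown with KCl. The genes were taken by name, as every gene measured by a probe set with a single gene symbol starting with Mrpl or Mrps and a number. The family was chosen with earlier results of these arrays known, and where a gene had several probe sets the one of highest mean over the 6 arrays was chosen by that value. This gave 77 genes from 85 probe sets, out of 19937 genes in all: 48 of the large subunit (Mrpl) and 29 of the small subunit (Mrps).

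Neurospheres are clusters of cells that grow in suspension from dividing neural stem and progenitor cells. Hippocampal cells of male C57BL/6J mice, adults of 8 to 12 weeks, were grown into primary neurospheres in medium with EGF and bFGF, and the labels of all 6 arrays call the neurospheres big without giving a size. One group received 10 µM norepinephrine (3 arrays) and the other 15 mM KCl (3 arrays), and both were harvested on day 14. No untreated group was analysed here, so a difference cannot be assigned to either treatment. The samples are called biological replicates, but their animals and cultures of origin are not stated, so a p-value refers to the spread between these arrays.

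Mitochondria keep their own ribosome, which translates the few messenger RNAs of mitochondrial DNA into core proteins of the respiratory chain. Its RNAs are made in the mitochondrion, while its proteins are encoded by nuclear genes, made in the cytosol and imported. The large subunit joins amino acids at the peptidyl transferase centre and passes the chain through an exit tunnel to the inner membrane, and the small subunit holds the messenger RNA and reads its codons. Many of the proteins descend from bacterial ribosomal proteins, and others are found only in mitochondria.

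One array stood apart in the spread of its values and in its correlation with the others. KCl replicate 1 had the narrowest spread of log2 values, with an interquartile range of 1.476 against 1.94 to 2.388 on the other 5 arrays. It correlated with the others at 0.881 to 0.929 over the probe sets, while those 5 correlated with each other at 0.97 to 0.989. Of those, KCl replicate 2 correlated at 0.987 with norepinephrine replicate 2 and at 0.971 with KCl replicate 3. Relative to the mean of the other KCl arrays, KCl replicate 1 had a median shift of 0.264 log2 units over all genes and of -0.238 over the mitochondrial ribosome genes. The shift was below -1 for 14 of the 77 genes (18.2%), against 8.09% of all genes. Counts of genes higher with norepinephrine and medians over each subunit are therefore given with and without this array, and after cyclic loess, which evens out differences between arrays that depend on brightness. For members described singly the value without the array stands beside that on 6 arrays, and a value after cyclic loess is given only where loess turned the sign.

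On the 6 arrays, 46 of the 48 large subunit genes and 27 of the 29 small subunit genes had a higher mean with norepinephrine than with KCl, against 37.8% of all genes. The median difference, norepinephrine minus KCl on the log2 scale, was 0.33 for the large subunit (interquartile range 0.18 to 0.56) and 0.35 for the small subunit (0.18 to 0.58), against -0.07 for all genes. Over both subunits the median corresponded to a 1.26-fold higher level. No member passed an adjusted p of 0.05 in limma on the 6 arrays, where the lowest adjusted p of a member was 0.939. None of the 21640 named probe sets did (0.0%). At an unadjusted p under 0.05, 434 genes were higher and 199 lower.

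At that unadjusted threshold 8 members were higher with norepinephrine, 7 of the large and 1 of the small subunit, or 10.4% of the 77 against 2.18% of all genes. No member was lower, against 199 of all 19937 genes. For 15 members (12 large, 3 small) every norepinephrine array lay above every KCl array, which held for 4.44% of all genes. The opposite order held for 0 members and for 4.58% of all genes.

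Without KCl replicate 1, which leaves 2 KCl arrays, the counts higher with norepinephrine were again 46 of 48 and 27 of 29, against 52.7% of all genes. The medians were 0.22 in each subunit, against 0.01 for all genes. At an unadjusted p under 0.05 there were 11 members, against 2.4% of all genes, and the lowest adjusted p of a member was 0.784. Over all named probe sets 4 (0.0185%) passed the adjusted threshold and none was a member. Groups did not overlap for 21 members (14 large, 7 small), with norepinephrine above in each, against 8.27% of all genes. The opposite order held for 0 members and for 7.76% of all genes.

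After cyclic loess on the 6 arrays, 43 large and 23 small subunit genes were higher with norepinephrine, against 49.3% of all genes, with a median of 0.24 in each subunit. With cyclic loess and without KCl replicate 1, the counts were 45 and 27, against 50.9% of all genes, and the medians were 0.23 in each subunit. A further quantile normalization left 42 large and 23 small subunit genes higher with norepinephrine, against 43.1% of all genes. In bulk samples a difference in RNA per cell and a difference in which cells are present cannot be told apart.

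**Figure D1:**
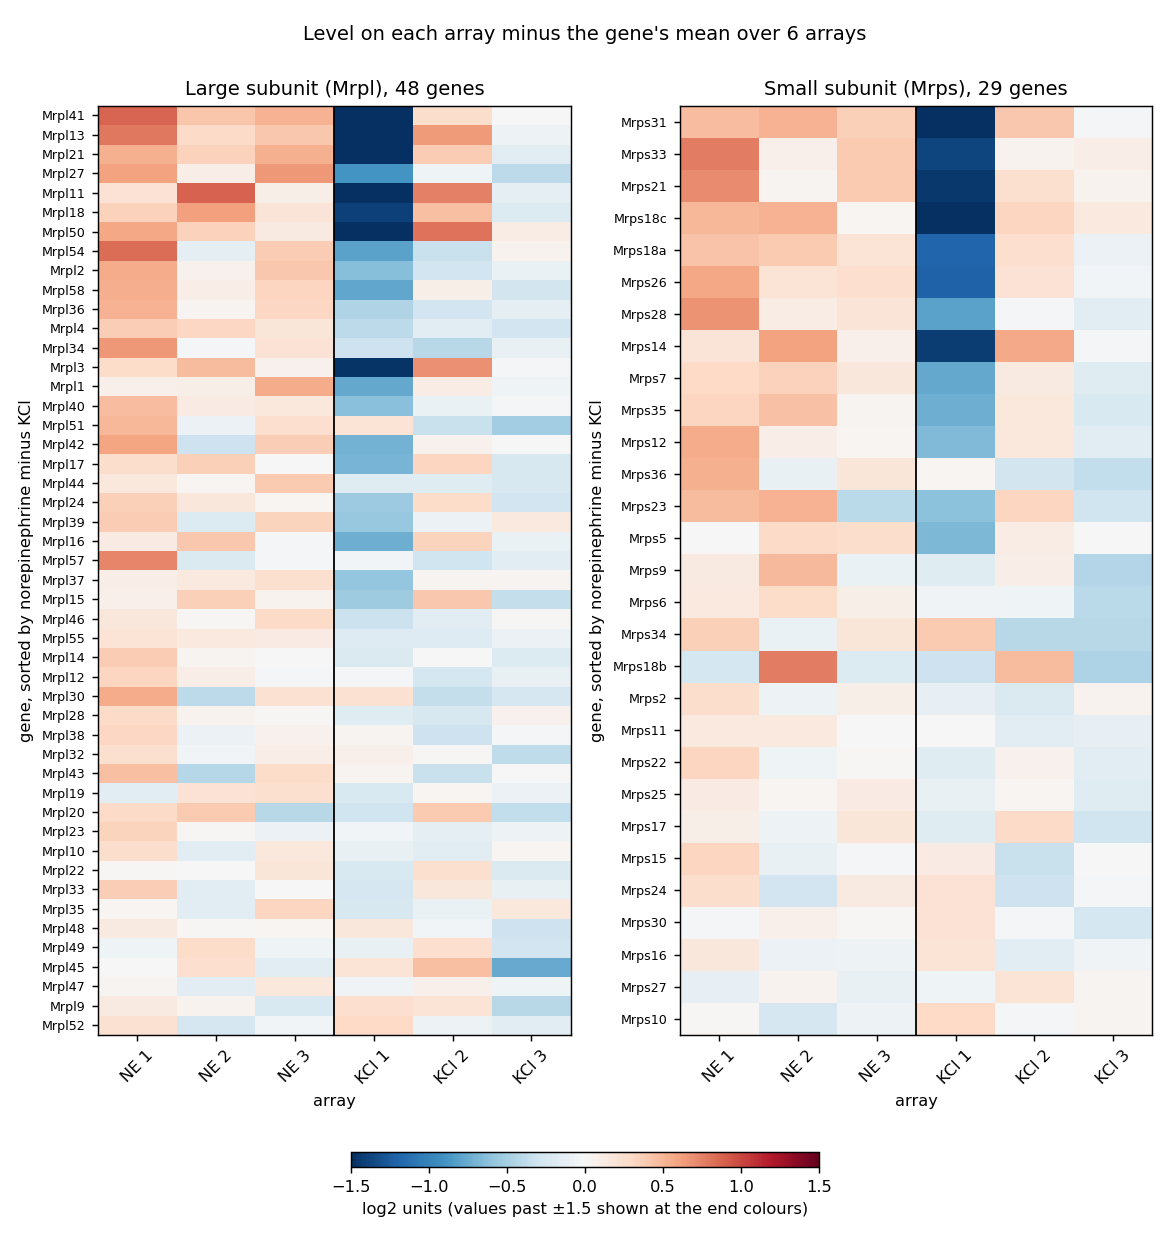
Each row is 1 gene of the large (left) or small (right) subunit, each column 1 array (NE, norepinephrine), and the colour is the log2 level on that array minus the gene's mean over the 6 arrays. The column of KCl replicate 1 holds the darkest blue cells, and it was the lowest array for 43 of the 77 genes.

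The mean over the 48 large subunit genes was 9.0, 8.75 and 8.83 log2 units on norepinephrine replicates 1 to 3, against 8.17, 8.71 and 8.51 on KCl replicates 1 to 3. For the 29 small subunit genes the means were 9.03, 8.9 and 8.82 with norepinephrine, against 8.26, 8.81 and 8.6 with KCl. In both subunits each norepinephrine array lay above each KCl array, but norepinephrine replicates 2 and 3 and KCl replicate 2 lay close together. The mean over all genes stayed between 7.17 and 7.29 on the 6 arrays.

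After cyclic loess the large subunit averaged 8.96, 8.65 and 8.81 with norepinephrine, against 8.43, 8.59 and 8.51 with KCl. The small subunit averaged 8.98, 8.8 and 8.79 with norepinephrine, against 8.53, 8.68 and 8.59 with KCl. The order of the groups was unchanged, and the gap between norepinephrine replicate 2 and KCl replicate 2 in the large subunit was the narrowest between the groups.

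**Figure D2:**
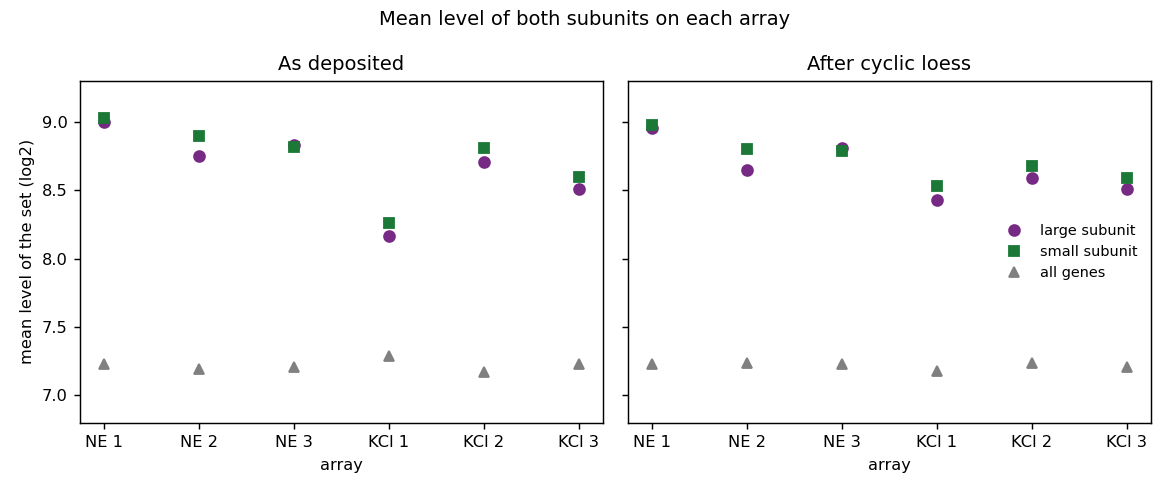
Points give the mean log2 level of the large subunit (48 genes), the small subunit (29 genes) and all genes on each array, as deposited (left) and after cyclic loess (right); NE is norepinephrine. Both subunits are highest on norepinephrine replicate 1 and lowest on KCl replicate 1, which moves closer to the other KCl arrays after loess.

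The lowest of the 6 arrays was a KCl array for 69 of the 77 genes (89.6%), against 64.5% of all genes, and the highest was a norepinephrine array for 63 (81.8%), against 24.7% of all genes. Norepinephrine replicate 1 was the highest array for 37 members (48.1%), against 9.46% of all genes. KCl replicate 1 was the lowest for 43 members (55.8%), against 24.7% of all genes. KCl replicate 3 was the highest for none of the 77, against 6.81% of all genes.

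Proteins around the peptidyl transferase centre are encoded by Mrpl2, Mrpl3, Mrpl16 and Mrpl27, and Mrpl4, of the exit tunnel, was grouped with them. All 5 had a higher mean with norepinephrine. The median difference was 0.57, or 0.51 without KCl replicate 1, in both cases the value of Mrpl4. Mrpl27 encodes the counterpart of bacterial L27, whose end reaches toward the transfer RNAs at the catalytic site. It read 9.59, 9.08 and 9.64 on the norepinephrine arrays, against 8.09, 8.92 and 8.59 on the KCl arrays. The groups did not overlap, and the difference was 0.91 ± 0.27 (SE), or 1.87-fold. Without KCl replicate 1 it was 0.68 ± 0.22, or 1.6-fold.

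Mrpl2, whose bacterial counterpart L2 lies close to the catalytic site, read 9.11, 8.61 and 8.96 with norepinephrine, against 7.91, 8.26 and 8.45 with KCl. The groups did not overlap, and the difference was 0.68 ± 0.22 (SE), or 0.54 ± 0.2 without KCl replicate 1. Mrpl4, the counterpart of a protein that lines the exit tunnel, read 9.1, 9.04 and 8.92 with norepinephrine, against 8.34, 8.56 and 8.45 with KCl. Here the replicates were tight, with standard deviations of 0.09 and 0.11, and the difference of 0.57 ± 0.18 was 0.51 ± 0.16 without KCl replicate 1.

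The remaining catalytic centre genes depended on 1 array. Mrpl3 read 8.97, 9.17 and 8.76 with norepinephrine, against 7.23, 9.39 and 8.68 with KCl. KCl replicate 1 was the lowest and KCl replicate 2 the highest of the 6 values, and the difference of 0.53 ± 0.47 (SE) became -0.07 ± 0.23 without KCl replicate 1. Mrpl16, the counterpart of a protein beside the incoming transfer RNA, differed by 0.34 ± 0.28 on 6 arrays and by 0.05 ± 0.21 without that array.

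The stalk is the flexible arm on which translation factors dock. Mrpl10, Mrpl11, Mrpl12 and Mrpl54 of this region were all higher on average with norepinephrine, with a median of 0.49, or 0.23 without KCl replicate 1. Mrpl12, which forms the arm itself, read 8.96, 8.74 and 8.61 with norepinephrine, against 8.61, 8.37 and 8.53 with KCl. The lowest norepinephrine value and the highest KCl value both round to 8.61, the groups touched without crossing, and the difference was 0.27 ± 0.19 (SE), or 0.32 ± 0.18 without KCl replicate 1.

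Mrpl54, a protein beside the stalk with no bacterial counterpart, read 8.32, 7.34 and 7.86 with norepinephrine, against 6.68, 7.15 and 7.54 with KCl. The values overlapped and spread widely in both groups, with a difference of 0.71 ± 0.31 (SE) that was 0.49 ± 0.27 without KCl replicate 1. Mrpl11, at the base of the stalk, differed by 0.79 ± 0.56 on 6 arrays and by 0.09 ± 0.31 without KCl replicate 1, where it read 7.6 against 10.15 and 9.26 on the other KCl arrays. Mrpl10, which anchors the arm, differed by 0.17 ± 0.2, or 0.15 ± 0.19 without that array.

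Next came the rim of the exit tunnel, where the growing chain leaves the ribosome. All 7 genes (Mrpl17, Mrpl22, Mrpl23, Mrpl24, Mrpl44, Mrpl45 and Mrpl47) had positive differences on 6 arrays, with a median of 0.18, or 0.19 without KCl replicate 1, and Mrpl22 turned negative (-0.04) after cyclic loess. Mrpl44, related in fold to ribonuclease III, read 8.01, 7.88 and 8.24 with norepinephrine, against 7.67, 7.67 and 7.61 with KCl. Its groups did not overlap, the KCl values were nearly equal, and the difference was 0.39 ± 0.18 (SE) with KCl replicate 1 and 0.41 ± 0.18 without it.

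Mrpl45, which ties the ribosome to the inner membrane, differed by 0.07 ± 0.31 (SE), or 0.19 ± 0.31 without KCl replicate 1, and was lowest on KCl replicate 3 with 6.6. Mrpl47, the counterpart of bacterial L29, differed by 0.03 ± 0.18, or 0.01 ± 0.17 without that array. None of these differences exceeded its standard error.

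The central protuberance faces the small subunit and contacts transfer RNAs. Of its 7 genes, Mrpl18, Mrpl38, Mrpl40, Mrpl46, Mrpl48 and Mrpl55 were higher on average with norepinephrine and Mrpl52 was not, with a median of 0.31, or 0.26 without KCl replicate 1. Mrpl55 read 8.91, 8.86 and 8.83 with norepinephrine, against 8.51, 8.52 and 8.62 with KCl. The standard deviations within the groups were 0.04 and 0.06, the groups did not overlap, and the difference was 0.31 ± 0.17 (SE), or 0.29 ± 0.16 without KCl replicate 1.

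Mrpl40 read 8.86, 8.52 and 8.55 with norepinephrine, against 7.77, 8.29 and 8.38 with KCl. It too showed no overlap, at 0.49 ± 0.22 (SE), or 0.3 ± 0.18 without KCl replicate 1. Mrpl18, the counterpart of the protein that binds the 5S RNA in bacteria, differed by 0.77 ± 0.41, or 0.26 ± 0.23 without KCl replicate 1, which read 8.33 against 10.19 and 9.53 on the other KCl arrays. Mrpl48 differed by 0.12 ± 0.2, or 0.24 ± 0.17 without that array, and turned to -0.05 after cyclic loess.

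Outside these regions, Mrpl41 had the highest difference of the 77 chosen probe sets on 6 arrays, at 1.21 ± 0.54 (SE), or 2.31-fold, while its other probe set gave 0.21. With the mean of a gene's probe sets it was at 0.71 and Mrpl13 was highest, at 0.99. It read 10.92, 10.46 and 10.56 with norepinephrine, against 7.96, 10.3 and 10.05 with KCl. The groups did not overlap, but most of the gap lay on KCl replicate 1, and the difference was 0.47 ± 0.19 without it. Mrpl13 read 9.26, 8.76 and 8.88 with norepinephrine, against 6.42, 9.11 and 8.39 with KCl. KCl replicate 2 lay within the norepinephrine range, and the difference of 0.99 ± 0.58 was 0.21 ± 0.25 without KCl replicate 1.

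Mrpl21 differed by 0.95 ± 0.44 (SE), or 0.37 ± 0.2 without KCl replicate 1. Mrpl50 read 9.45, 9.22 and 9.01 with norepinephrine, against 6.89, 9.69 and 8.98 with KCl. KCl replicate 2 was the highest of its 6 values, and the difference of 0.71 ± 0.6 was -0.11 ± 0.24 without KCl replicate 1.

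In another group of large subunit genes the difference depended little on that array. Mrpl34, the counterpart of a small bacterial protein of the subunit body, read 8.89, 8.22 and 8.46 with norepinephrine, against 7.93, 7.82 and 8.13 with KCl. Its difference was 0.56 ± 0.22 (SE), or 0.55 ± 0.22 without KCl replicate 1, and the groups did not overlap. Mrpl36, the counterpart of a small zinc-binding protein of bacteria, read 8.61, 8.13 and 8.4 with norepinephrine, against 7.64, 7.8 and 7.95 with KCl. The groups were again apart, at 0.59 ± 0.2 and 0.51 ± 0.19 without KCl replicate 1.

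Mrpl58, a release-factor relative that frees chains from stalled ribosomes and is also a subunit, read 9.09, 8.65 and 8.87 with norepinephrine, against 7.77, 8.63 and 8.27 with KCl. Norepinephrine replicate 2 and KCl replicate 2 nearly met, though the groups did not overlap, and the difference was 0.65 ± 0.25 (SE), or 0.42 ± 0.2 without KCl replicate 1. Mrpl27, Mrpl2, Mrpl4, Mrpl34 and Mrpl36 were the 5 members (6.49% of the 77) at an unadjusted p under 0.05 both with and without KCl replicate 1, against 1.64% of all genes; the fits share 5 arrays.

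Mrpl51 went the other way with respect to KCl replicate 1. It read 10.69, 10.11 and 10.45 with norepinephrine, against 10.4, 9.86 and 9.67 with KCl. KCl replicate 1 lay within the norepinephrine range, so that the difference was 0.44 ± 0.25 (SE) with it and 0.65 ± 0.2 without it, while its other probe set gave 0.13 and 0.33. At the other end of the large subunit stood Mrpl52 with -0.04 ± 0.22 and Mrpl9 with -0.03 ± 0.23, which were 0.1 and 0.09 without KCl replicate 1. Their values overlapped between the groups. The 15 large subunit genes not singled out had differences from 0.1 (Mrpl49) to 0.49 (Mrpl1) on 6 arrays and from 0.03 to 0.44 (Mrpl30) without KCl replicate 1, and after cyclic loess Mrpl35 was at -0.05.

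**Figure D3:**
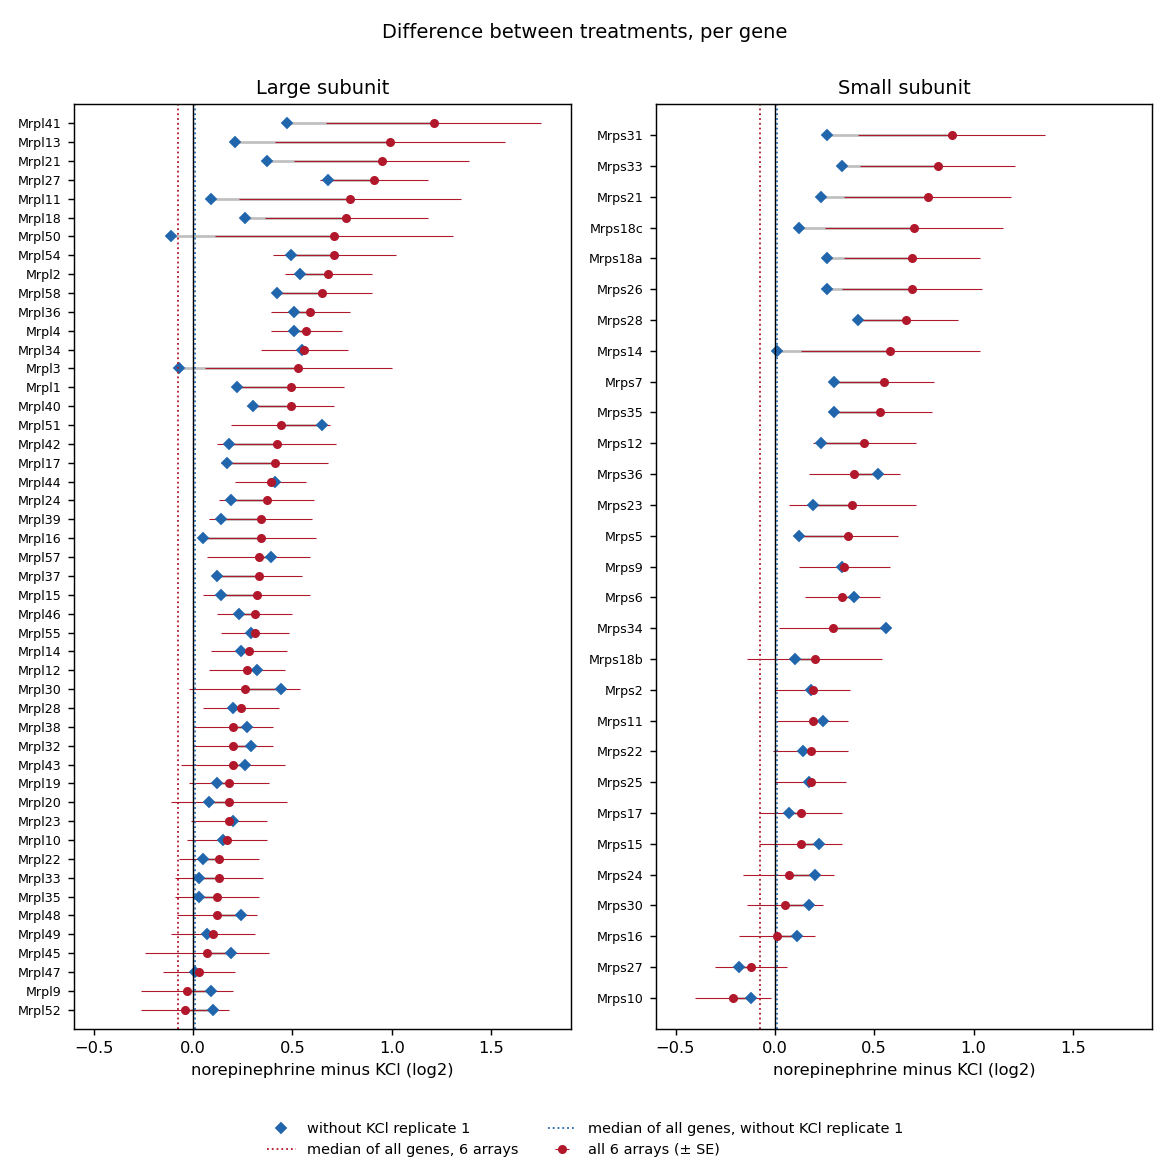
Each row is 1 gene, with the difference norepinephrine minus KCl in log2 units on all 6 arrays (red, ± SE) and without KCl replicate 1 (blue), for the large (left) and small (right) subunit; dotted lines are medians of all genes. Most genes lie right of 0 in both, and the long grey links belong to genes with a low value on KCl replicate 1, such as Mrpl13 (0.99 and 0.21).

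In the small subunit, 7 genes of the decoding centre and the messenger RNA channel were described together: Mrps2, Mrps5, Mrps7, Mrps11, Mrps12, Mrps24 and Mrps28. All 7 had positive differences on 6 arrays, with a median of 0.36, or 0.23 without KCl replicate 1, and Mrps24 was negative (-0.07) after cyclic loess. Mrps28 read 9.49, 8.92 and 9.01 with norepinephrine, against 8.01, 8.8 and 8.65 with KCl. Its groups did not overlap, and it was the 1 small subunit gene at an unadjusted p under 0.05, with 0.66 ± 0.26 (SE), or 0.42 ± 0.21 without KCl replicate 1.

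Mrps7 read 9.79, 9.83 and 9.66 with norepinephrine, against 8.72, 9.62 and 9.3 with KCl. The norepinephrine values were tight (SD 0.09), and all lay above those with KCl, at 0.55 ± 0.25 (SE), or 0.3 ± 0.18 without KCl replicate 1. Mrps12, the counterpart of the bacterial protein that monitors codon pairing, differed by 0.45 ± 0.26, or 0.23 ± 0.21 without that array, and its groups overlapped. Mrps5, near the channel entrance, differed by 0.37 ± 0.25, or 0.12 ± 0.17 without it.

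Mammals carry 3 relatives of bacterial S18. Structures place the products of Mrps18b and Mrps18c in the small subunit and that of Mrps18a, despite its name, in the large subunit. Mrps18c read 9.84, 9.86 and 9.37 with norepinephrine, against 7.81, 9.66 and 9.48 with KCl, and Mrps18a read 9.5, 9.47 and 9.28 with norepinephrine, against 7.88, 9.32 and 8.98 with KCl. In both, KCl replicate 1 was far below the rest and KCl replicate 2 lay within the norepinephrine range.

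The differences were 0.7 ± 0.45 (SE) for Mrps18c and 0.69 ± 0.34 for Mrps18a, or 0.12 ± 0.2 and 0.26 ± 0.18 without KCl replicate 1. Mrps18b behaved differently across arrays. It read 7.68, 8.71 and 7.73 with norepinephrine, against 7.63, 8.41 and 7.48 with KCl, so that replicate 2 was the high array in each treatment, and the difference was 0.2 ± 0.34, or 0.1 ± 0.35 without KCl replicate 1. Mrps30, also placed in the large subunit by structures, differed by 0.05 ± 0.19, or 0.17 ± 0.16 without that array. With Mrps18a and Mrps30 counted in the large subunit and Mrps36 left out, the medians were 0.33 for the large and 0.35 for the small subunit.

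The largest differences of the small subunit on 6 arrays fell on genes that were low on KCl replicate 1. Mrps31 read 9.86, 9.92 and 9.75 with norepinephrine, against 7.68, 9.8 and 9.37 with KCl. Its norepinephrine values had an SD of 0.09, KCl replicate 2 lay among them, and the difference was 0.89 ± 0.47 (SE), or 0.26 ± 0.19 without KCl replicate 1. Mrps33 differed by 0.82 ± 0.39, or 0.34 ± 0.21 (its other probe set gave 0.13 and 0.06), Mrps21 by 0.77 ± 0.42, or 0.23 ± 0.21, and Mrps26 by 0.69 ± 0.35, or 0.26 ± 0.19 without that array. Mrps31, Mrps33 and Mrps26 encode proteins with no bacterial counterpart, and Mrps21 a relative of bacterial S21.

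Another set of small subunit genes, Mrps34, Mrps36 and Mrps6, had larger differences once KCl replicate 1 was left out. Mrps34 read 8.53, 8.07 and 8.35 with norepinephrine, against 8.56, 7.76 and 7.76 with KCl. KCl replicate 1 was the highest of the 6, and the difference of 0.29 ± 0.27 (SE) was 0.56 ± 0.19 without it. Mrps36, whose product was later recognised as a subunit of the 2-oxoglutarate dehydrogenase complex, read 9.98, 9.33 and 9.63 with norepinephrine, against 9.48, 9.17 and 9.08 with KCl. It differed by 0.4 ± 0.23, or 0.52 ± 0.21 without KCl replicate 1.

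Mrps6 read 10.74, 10.86 and 10.68 with norepinephrine, against 10.54, 10.53 and 10.19 with KCl. The groups did not overlap on 6 arrays, at 0.34 ± 0.19 (SE), or 0.4 ± 0.18 without KCl replicate 1. Mrps10 and Mrps27 had negative differences both with and without KCl replicate 1. Mrps10 read 7.97, 7.7 and 7.88 with norepinephrine, against 8.26, 7.93 and 8.0 with KCl, and Mrps27, which has repeats typical of RNA-binding proteins of organelles, read 7.18, 7.36 and 7.19 with norepinephrine, against 7.24, 7.51 and 7.34 with KCl. The values overlapped in both genes, and the differences were -0.21 ± 0.19 and -0.12 ± 0.18, or -0.12 ± 0.17 and -0.18 ± 0.17 without KCl replicate 1. Mrps16 differed by 0.01 ± 0.19, or 0.11 ± 0.17 without that array, and turned to -0.12 after cyclic loess. The 8 small subunit genes not singled out had differences from 0.13 (Mrps15 and Mrps17) to 0.58 (Mrps14) on 6 arrays and from 0.01 (Mrps14) to 0.34 (Mrps9) without KCl replicate 1, and after cyclic loess Mrps15 was at -0.01 and Mrps22 just below 0.

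Set against each other, the subunits differed by less than the spread between replicates. The median of the large minus that of the small subunit was -0.02, and between replicates the gap between the subunit means had an SD of 0.0583. Origin was compared next. Of the large subunit genes with a bacterial counterpart 29 of 30 were higher on average with norepinephrine (median 0.32, or 0.2 without KCl replicate 1), and of those without one 17 of 18 (median 0.33, or 0.25). In the small subunit the counts were 16 of 17 with a counterpart (median 0.34, or 0.2 without KCl replicate 1), Mrps18b included, and 8 of 9 without one (median 0.39, or 0.26), with Mrps18a, Mrps30 and Mrps36 in neither.

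Across the 77 genes, the difference on 6 arrays followed how far KCl replicate 1 fell below the other KCl arrays (Pearson's r = -0.79, Spearman's rho = -0.75). The same KCl replicate 1 value enters both measures, and genes on 1 set of arrays are not independent, so this is a description. The differences with and without KCl replicate 1, which share 5 arrays, had r = 0.47 and rho = 0.5. With KCl replicate 1 the difference was larger in 55 of the 77 genes (71.4%, against 35.3% of all genes). It was above 0.5 in 24 genes with that array (31.2%, against 5.52% of all genes) and in 8 without it (10.4%, against 1.77%). In 60 of the 77 genes (77.9%) the difference stayed positive whichever single array was left out, against 18.6% of all genes.

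All 77 chosen probe sets lay above the median level of all genes, which was 7.15. For all genes, too, the probe set of highest mean was taken. Brightness therefore has to be set beside the counts. Among all genes above the median of the probe sets, 59.5% were higher with norepinephrine on 6 arrays, with a median difference of 0.06, and 51.6% without KCl replicate 1, with a median of 0.01. The medians of the members in those settings were 0.33 and 0.22.

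**Figure D4:**
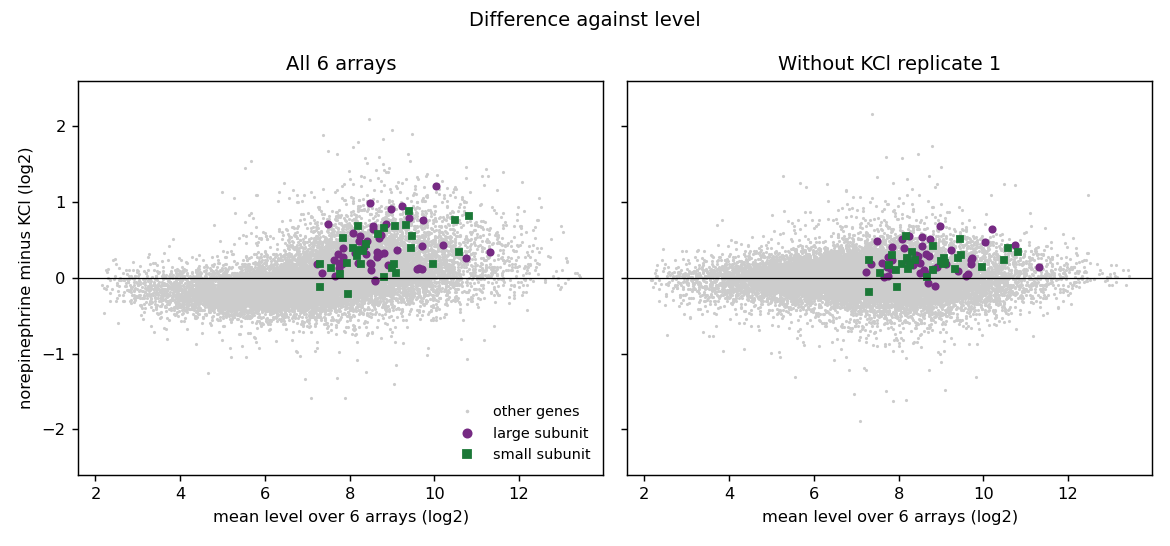
Each point is 1 gene, with its mean log2 level over 6 arrays on the horizontal axis and norepinephrine minus KCl in log2 units on the vertical axis, on all 6 arrays (left) and without KCl replicate 1 (right). On 6 arrays the grey cloud of other genes bends upward at brighter levels, where the members lie; without KCl replicate 1 the cloud is level and 73 of the 77 members lie above 0.

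Other nuclear gene sets, taken by name, gave a scale for these numbers. The cytosolic set held names of Rpl or Rps and a number, and the respiratory chain set names of the Nduf, Uqcr, Cox and Atp5 series. Relatives with similar names were not removed. Above the median level of all genes lay 52 of the 56 and 73 of the 77 genes, and the lowest levels were 4.72 and 4.66. Of 56 genes for cytosolic ribosomal proteins, 43 were higher on average with norepinephrine (median 0.22), or 42 without KCl replicate 1 (median 0.1). The complexes of the respiratory chain also take up the proteins the mitochondrial ribosome makes. Of its 77 nuclear genes 74 were higher (median 0.46), or 72 without KCl replicate 1 (median 0.29). Over all genes the shares were 37.8% on 6 arrays and 52.7% without KCl replicate 1. Among all genes above the median of the probe sets they were 59.5% and 51.6%. Groups did not overlap, with norepinephrine above, for 30 respiratory chain genes (39.0%) and 5 cytosolic ribosomal genes (8.93%) on 6 arrays. This held for 15 members (19.5%) and for 4.44% of all genes. Without KCl replicate 1 it held for 36 respiratory chain genes (46.8%), 7 cytosolic ribosomal genes (12.5%) and 21 members (27.3%), against 8.27% of all genes. The gaps between these medians were not tested.

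Among the other genes of mitochondrial translation, ribosomal proteins with names outside the Mrpl and Mrps series, translation factors and assembly factors were listed with earlier results known. None passed the adjusted threshold. Dap3, Ptcd3, Chchd1 and Gadd45gip1, which encode subunits under other names, all had positive differences on 6 arrays (the list of 6 in the plot of lists also holds the members Mrpl57 and Mrpl58). Chchd1 read 9.2, 8.75 and 8.84 with norepinephrine, against 7.61, 8.57 and 8.6 with KCl. Its groups did not overlap, at 0.67 ± 0.29 (SE), or 0.34 without KCl replicate 1, while Ptcd3 differed by 0.29 ± 0.46 and by -0.2 without that array.

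Translation factors were higher on average with norepinephrine in 14 of 15 genes (median 0.28), against 37.8% of all genes. Without KCl replicate 1 it was 13 of 15 (median 0.13), against 52.7% of all genes. Mrrf, the ribosome recycling factor, differed by 0.47 ± 0.28 (SE), or 0.42 without KCl replicate 1. Tufm, the elongation factor that brings in transfer RNAs, differed by 0.48 ± 0.37, or 0.08. Slirp, which protects mitochondrial messenger RNAs with Lrpprc, differed by -0.06 ± 0.35 on 6 arrays and by 0.3 ± 0.25 without KCl replicate 1.

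Assembly factors and ribosomal RNA modifiers gave a lower share than translation factors. Of these, 17 of 26 genes were higher on average (median 0.1), against 37.8% of all genes. Without KCl replicate 1 it was 15 of 26 (median 0.04), against 52.7% of all genes. Mpv17l2, an inner membrane protein needed for assembly, read 9.5, 9.02 and 9.43 with norepinephrine, against 8.89, 8.52 and 8.97 with KCl. The groups did not overlap, at 0.52 ± 0.22 (SE), or 0.57 without KCl replicate 1. Mettl15, a methyltransferase of the small subunit RNA, differed by 0.38 ± 0.18, or 0.36.

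Of the mitochondrial aminoacyl-tRNA synthetases and related genes, 12 of 19 were higher on average with norepinephrine (median 0.08), against 37.8% of all genes. Without KCl replicate 1 it was again 12 of 19 (median 0.04), against 52.7% of all genes. Nars2, which charges the transfer RNA of asparagine, differed by 0.76 ± 0.47 (SE), or 0.28 without KCl replicate 1. Genes for the copying, transcription and RNA processing of mitochondrial DNA were higher in 10 of 18 (median 0.13). Without KCl replicate 1 it was 9 of 18 (median -0.01), beside the same shares of all genes. Within them Top1mt, the mitochondrial topoisomerase, differed by 0.51 ± 0.22 (SE) and Mterf2, a DNA-binding factor of the termination factor family, by -0.69 ± 0.3, or 0.39 and -0.45 without KCl replicate 1. Regulators of mitochondrial biogenesis were higher in 4 of 10 (median -0.01), or 3 without KCl replicate 1 (median -0.06), again beside those shares. Ppargc1a, a coactivator of such genes, differed by -0.03 ± 0.26 on 6 arrays and by -0.32 ± 0.16 without KCl replicate 1. Nrf1, a factor that binds many of their promoters, differed by 0.13 ± 0.17, or 0.12 ± 0.16 without that array. Of the 13 protein genes of mitochondrial DNA, whose messages this ribosome translates, ND3 and COX2 had a probe set with a single symbol. ND3 differed by 0.07 ± 0.18 (SE), or 0.1 ± 0.17 without KCl replicate 1, and COX2 by -0.12 ± 0.2, or 0.01 ± 0.17.

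**Figure D5:**
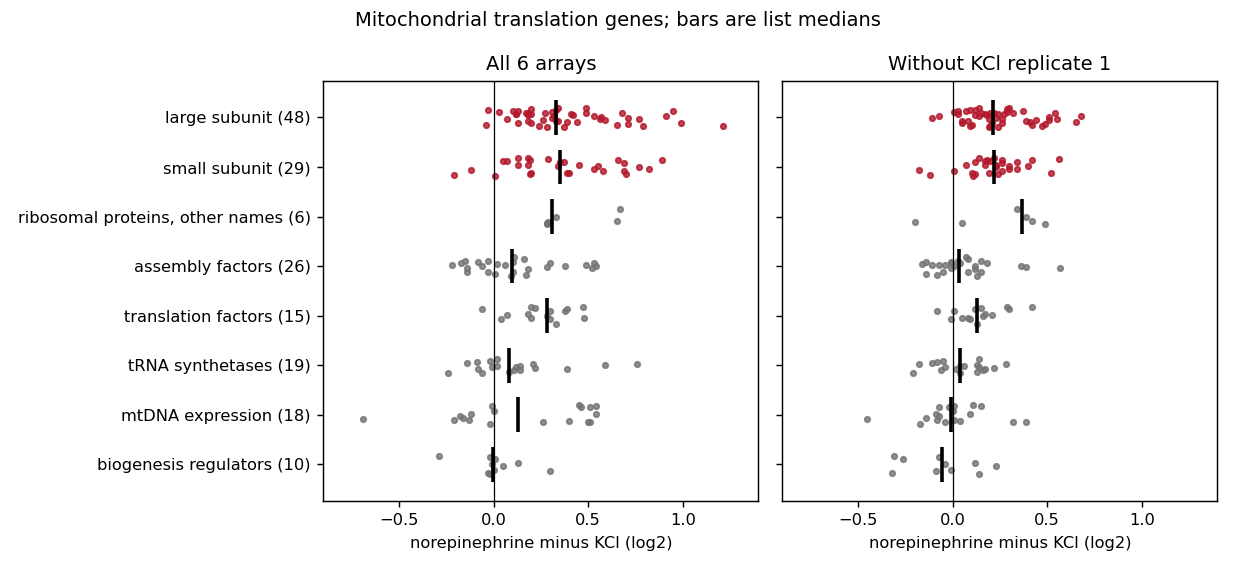
Each point is the difference norepinephrine minus KCl of 1 gene in log2 units, by list (number of genes in brackets; black bars are medians), on all 6 arrays (left) and without KCl replicate 1 (right). The 2 subunits (red) have medians of 0.33 and 0.35 on 6 arrays and 0.22 each without KCl replicate 1, while the synthetases, mitochondrial DNA genes and biogenesis regulators have medians between -0.06 and 0.13.

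Cell type markers were read on the same arrays. Neural stem and progenitor markers were measured for 9 genes. Sox2 read 10.5, 10.19 and 10.37 with norepinephrine, against 9.43, 10.33 and 10.25 with KCl. Nes read 9.09, 8.98 and 8.9 with norepinephrine, against 8.12, 9.7 and 9.43 with KCl. The difference of Nes was -0.1 ± 0.37 (SE), or -0.58 ± 0.17 without KCl replicate 1. For Sox2 it was 0.35 ± 0.26, or 0.07 ± 0.17, and for Prom1 0.6 ± 0.21, or 0.66 ± 0.2. The mean of 10 astrocyte markers was 9.31, 9.36 and 9.29 with norepinephrine, against 8.26, 8.63 and 8.63 with KCl. They were thus higher with norepinephrine beside the members, with 9 of 10 genes higher on average (median 0.89), against 37.8% of all genes. Without KCl replicate 1 it was again 9 of 10 (median 0.46), against 52.7% of all genes, and 1 passed the adjusted threshold. Microglial markers ran the other way on 6 arrays, with 1 of 10 higher (median -0.29), against 37.8% of all genes. Without KCl replicate 1 it was 4 of 10 (median -0.07), against 52.7% of all genes. Their means were 6.19, 6.05 and 6.21 with norepinephrine, against 6.78, 6.18 and 6.31 with KCl. Of the neural stem markers 5 of 9 were higher on average (median 0.35), or 7 without KCl replicate 1 (median 0.13). Of the neuronal ones 8 of 10 were higher (median 0.1), or 9 without that array (median 0.31). For oligodendrocyte markers it was 4 of 9 (median -0.05), or 5 without KCl replicate 1 (median 0.13). Among markers of endothelium and pericytes 2 of 10 were higher (median -0.11), or 8 without that array (median 0.06). Those of ependyma gave 4 of 8 (median -0.03), or 5 without it (median 0.13). Each of these counts stands beside the shares over all genes, 37.8% on 6 arrays and 52.7% without KCl replicate 1. The part of these cell types in the members' differences was not tested.

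For 8 members the table held a second probe set, and not all pairs gave the same size. Both probe sets of Mrpl27 gave nearly the same difference, at 0.91 ± 0.27 (SE) for the chosen and 0.9 ± 0.23 for the other. Mrps5 was close too, with 0.37 and 0.32. For Mrpl41 the chosen probe set gave 1.21 and the other 0.21, and for Mrps33 0.82 and 0.13. Mrpl51 had 0.44 in the chosen and 0.13 in the other probe set, or 0.65 and 0.33 without KCl replicate 1. The other probe set was the one with the larger difference for Mrpl23 (0.54 beside 0.18), Mrpl47 (0.47 beside 0.03) and Mrps36 (0.69 beside 0.4).

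RefSeq lists 6 pseudogenes named after Mrpl23, Mrpl27, Mrpl48 and Mrps36, so signal of these genes and of near-identical copies may be mixed, and their values are uncertain to that extent. For all 8 genes, Mrpl41, Mrps33 and Mrpl51 among them, which probe set measures the gene itself could not be settled without probe positions. With the mean of all probe sets of a gene in place of the chosen one, the medians were 0.33 and 0.34 in the large and small subunit.

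Promoters were looked at because 73 of the 77 members had differences of the same sign. RefSeq promoters of the GRCm38.p6 build, from 250 bases before to 50 bases after the annotated start, were on hand for 68 of the 77 genes. Letters of sites known for factors that regulate nuclear genes of mitochondria were searched on both strands: GCGCATGC for NRF1, CCGGAAGT for ETS factors such as GABP, and AAGATGGC for YY1. The NRF1 letters were found for 8 of the 68 genes (11.8%), against 3.05% of 27025 genes with a promoter. The ETS letters were found for 12 (17.6%, against 4.31%) and the YY1 letters for 12 (17.6%, against 3.19%).

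At least 1 of these was found for 29 of the 68 genes (42.6%), against 9.91% of the 27025 genes with a promoter. The E-box CACGTG was found for 5 (7.35%, against 8.09%). The 27025 genes were not matched to the members by level on these arrays, so whether other bright genes share the excess was not tested. A match describes the letters in the window and is not evidence of binding. Members with the ETS letters had a median difference without KCl replicate 1 of 0.19, against 0.2 in members without them. For the YY1 letters these medians were 0.21 with and 0.2 without, and for the NRF1 letters 0.12 with and 0.23 without.

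The 250 bases before the start are shown for genes with the largest differences without KCl replicate 1 in each subunit, Mrpl27 and Mrpl51 of the large and Mrps36 and Mrps6 of the small, where a promoter was on hand. They are printed 5′ to 3′ on the gene's strand, and capitals mark the ETS letters. They lie at chr11:94653541-94653790 (plus strand) for Mrpl27, chr6:125191950-125192199 (plus strand) for Mrpl51, chr13:100744660-100744909 (minus strand) for Mrps36 and chr16:92058086-92058335 (plus strand) for Mrps6.
Mrpl27: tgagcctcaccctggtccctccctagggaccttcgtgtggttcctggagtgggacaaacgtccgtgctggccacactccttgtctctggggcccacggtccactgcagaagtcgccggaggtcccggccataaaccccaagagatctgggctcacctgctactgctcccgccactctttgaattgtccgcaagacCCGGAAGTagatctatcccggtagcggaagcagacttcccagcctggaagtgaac
Mrpl51: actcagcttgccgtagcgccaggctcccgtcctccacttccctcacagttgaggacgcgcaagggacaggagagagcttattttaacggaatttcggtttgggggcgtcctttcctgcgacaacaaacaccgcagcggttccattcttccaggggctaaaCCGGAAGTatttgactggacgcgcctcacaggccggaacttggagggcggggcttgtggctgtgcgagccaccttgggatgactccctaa
Mrps36: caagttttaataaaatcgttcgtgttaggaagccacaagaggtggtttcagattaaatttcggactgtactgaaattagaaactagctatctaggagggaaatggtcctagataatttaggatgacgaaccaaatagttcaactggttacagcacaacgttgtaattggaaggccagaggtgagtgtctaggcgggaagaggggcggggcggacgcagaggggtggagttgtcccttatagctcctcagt
Mrps6: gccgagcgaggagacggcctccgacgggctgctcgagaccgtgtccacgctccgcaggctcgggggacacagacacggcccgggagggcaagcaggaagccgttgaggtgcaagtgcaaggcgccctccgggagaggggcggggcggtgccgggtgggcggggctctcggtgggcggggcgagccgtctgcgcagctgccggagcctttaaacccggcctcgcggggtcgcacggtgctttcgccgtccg
The ETS letters began 55 bases before the start in Mrpl27, which read 0.68 higher with norepinephrine without KCl replicate 1, and 90 bases before it in Mrpl51, at 0.65. In the windows of Mrps36 (0.52) and Mrps6 (0.4) none of the NRF1, ETS or YY1 letters was found.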

How the data were processed

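Each deposited value is the log2 signal of 1 probe set on 1 array. Partek and RMA are named in the submitters' processing notes, with neither version nor settings. The table held 34760 probe sets, of which 21640 had 1 gene symbol in the platform annotation, 1321 had several and 11799 had none. Of the named ones 21553 were matched by Entrez identifier to RefSeq (GRCm38.p6), which changed 0 symbols. A probe set listed for both Ccdc142 and Mrpl53 was left out, so Mrpl53 is not analysed here, nor are the protein genes of mitochondrial DNA other than ND3 and COX2.

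Norepinephrine was compared with KCl with limma 3.58.1 (lmFit and eBayes, R 4.3.3) on all named probe sets, with two-sided p-values adjusted over all of them by Benjamini and Hochberg and no covariate. The fit was tested on simulated data. SE are moderated standard errors. A count over genes used the probe set of highest mean. The number of arrays limits the precision, and signal over background was not assessed.

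The members and the gene lists were chosen with earlier results of these data known. Genes named were, per subunit, the 6 largest and 4 smallest differences, members at an unadjusted p under 0.05, members of the described regions or with several probe sets, and up to 3 genes of smallest p per further list. Other names, such as Mrpl50, Mrps6, Ptcd3, Tufm, Slirp, Ppargc1a, ND3, COX2, Sox2 and Nes, were added after their values were seen.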

Additional observations from a re-analysis of the deposited data

How the results depend on the processing

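Medians and counts of members in each subunit kept their direction in the settings tried, which were further quantile normalization, centring of arrays, cyclic loess, a filter on dim probe sets, trend and robust moderation, the replicate block, array weights, the mean of a gene's probe sets, subunit assignment by structure, and leaving out each array; of 122 summary values 11 moved. Settings that join 2 changes and the gene-by-gene array weights were chosen after seeing the data; the planned default weights did not converge and were not run. The 8 members at an unadjusted p under 0.05 (2.18% of all genes were higher at it) became 13 with cyclic loess and without KCl replicate 1 (3.21% of all genes), 44 with array weights (10.9%) and 15 with the replicate block (4.1%). With 1 array left out they ranged from 1 without norepinephrine replicate 1 (0.923% of all genes) to 29 without KCl replicate 2 (8.28%), with 2 without norepinephrine replicate 3 (1.13%). Probe sets past the adjusted threshold ranged from 0 to 4 when 1 array was left out, 4 being without KCl replicate 1, and were 1454 with array weights. The weights were 0.158, 0.288 and 6.763 for KCl replicates 1 to 3, so the weighted KCl group rested mostly on replicate 3. Members past the adjusted threshold numbered 15 of 77 with array weights, against 1250 of all 19937 genes. With the replicate block it was 0 members and 0 of all genes. Equal replicate numbers 1 to 3 correlated at 0.301, 0.626 and 0.085 in their deviations from the group means. Unequal numbers correlated at -0.473 to 0.311. The value for replicate 2 was thus above all unequal pairs, and those for replicates 1 and 3 were not. Pairing of the samples by number is neither shown nor excluded by these values. The large minus small subunit median ranged from -0.0933 to 0.0898 when 1 array was left out.

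Of the 77 members 17 changed sign in at least 1 setting, and the cause was not tested. On leaving out 1 array, ranges were -0.0718 to 1.01 for Mrpl3, -0.242 to 0.0911 for Mrpl9, -0.0184 to 0.25 for Mrpl33, -0.0101 to 0.243 for Mrpl35, -0.289 to 0.314 for Mrpl45, -0.05 to 0.114 for Mrpl47, -0.000726 to 0.243 for Mrpl48, -0.0148 to 0.251 for Mrpl49, -0.11 to 1.294 for Mrpl50, -0.167 to 0.0985 for Mrpl52, -0.000242 to 0.222 for Mrps15, -0.0772 to 0.112 for Mrps16, -0.132 to 0.486 for Mrps18b, -0.0576 to 0.235 for Mrps24 and -0.0679 to 0.173 for Mrps30. With further quantile normalization, differences were -0.0306 for Mrpl22, -0.0371 for Mrpl35, -0.0375 for Mrpl48, -0.0309 for Mrpl49, -0.0401 for Mrps15, -0.164 for Mrps16, -0.0962 for Mrps24 and -0.0315 for Mrps30, and with cyclic loess -0.042 for Mrpl22, -0.0457 for Mrpl35, -0.0502 for Mrpl48, -0.00612 for Mrps15, -0.118 for Mrps16, -0.00338 for Mrps22 and -0.069 for Mrps24. Cyclic loess without KCl replicate 1 gave -0.0473 for Mrpl3, 0.112 for Mrpl9, -0.00896 for Mrpl47, -0.0811 for Mrpl50 and 0.12 for Mrpl52. With the filter or the mean of probe sets and without KCl replicate 1 the values were -0.0718 for Mrpl3, 0.0911 for Mrpl9, -0.11 for Mrpl50 and 0.0985 for Mrpl52. Array weights gave 0.312 for Mrpl9 and 0.176 for Mrpl52, and centring 0.00958 for Mrpl9.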
